A study of Saccharomyces cerevisiae with 8 samples.

Results

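Nucleosomes were described on 5 glycolytic genes of budding yeast: PFK2 (YMR205C), FBA1 (YKL060C), GPM1 (YKL152C), CDC19 (YAL038W) and PDC1 (YLR044C). They were chosen by name, and each was covered from 800 bp upstream of its listed start to its listed end. Start and end came from the study's supplementary list of transcripts, and strand from the last letter of the systematic name. The list available here held 1999 transcripts on 6 chromosomes, a part of the genome. Percentiles and shares of listed bodies and promoters describe that part only. The 5 genes are among 1614 listed transcripts used here, and they held 65 of the 62953 nucleosome centers called in all libraries together. Transcription was not measured in these libraries, so how highly the genes were expressed was not tested.

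The tested strain, H3 shutoff (DCB200.1), lacks the histone H3 gene HHT1 and carries HHT2, the other H3 gene, under the GAL1 promoter, which galactose activates and dextrose represses. The wildtype strain (YEF473A) has its normal H3 genes. Cultures of both grew in galactose and were moved to dextrose, and cells were taken 3 h later and at 0 h, right after the move. Replicates 3 and 4 of H3 shutoff and replicates B and C of wildtype each gave a library at 3 h and one at 0 h, 8 in all. The 3 h samples of both strains thus differ from 0 h by carbon source, and H3 shutoff cells also stop dividing as large-budded cells, so loss of H3 and this arrest cannot be told apart. Cells were fixed, chromatin was cut with micrococcal nuclease (MNase), which digests DNA between nucleosomes, and fragments of about 1 nucleosome were sequenced from both ends.

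Each library held 5000001 fragments of 100 to 200 bp. The midpoint of a fragment, its read center, marks the middle of a nucleosome, and the genome mean was 41.4 read centers per 100 bp and library. With equal depth these counts are relative: a loss spread evenly over the genome leaves them as they are. Neither can a change in every cell be told apart from a larger change in some cells. Mean fragment length was 158.0 and 162.9 bp in H3 shutoff replicates 3 and 4 at 3 h, against 157.2 and 152.9 bp at 0 h. It was 154.6 and 156.0 bp in wildtype replicates B and C at 3 h, against 150.6 and 146.0 bp at 0 h.

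Glycolysis turns glucose into pyruvate, and yeast ferments pyruvate to ethanol even in air when glucose is plentiful. PFK2 encodes a subunit of phosphofructokinase, the committing step. FBA1 encodes aldolase, which splits the 6-carbon sugar, GPM1 encodes phosphoglycerate mutase, and CDC19 encodes the main pyruvate kinase, the last step of glycolysis. PDC1 encodes the main pyruvate decarboxylase, the enzyme that takes pyruvate towards ethanol. Genes of this pathway are known as some of the most strongly transcribed in yeast, and RNA polymerase is known to displace nucleosomes as it passes.

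In the sacCer1 coordinates that the study's methods name, PFK2 covers positions 671594 to 674830 of chromosome 13 on the C strand and is the longest, at 3237 bp. FBA1 covers 326021 to 327139 and GPM1 163526 to 164397, both on the C strand of chromosome 11, with lengths of 1119 and 872 bp. CDC19 lies on the W strand of chromosome 1 from 71759 to 73456, over 1698 bp, and PDC1 on the C strand of chromosome 12 from 232337 to 234114, over 1778 bp. None is known to have an intron, so the stretch between start and end is transcribed throughout. Upstream, the end of another listed gene falls within the 800 bp at FBA1 (MPE1, reaching position -555 from the start), GPM1 (NNR2, -421) and PDC1 (STU2, -714). Listed reading frames on the other strand overlap the bodies of CDC19 (YAL037C-B) and GPM1 (YKL153W), and the fragments cannot be assigned to a strand. PDC1 has a close copy, PDC5, and reads from stretches the pair share may have been placed on either. To check the listed starts against the fragments, neighbours were averaged. Over the 36 to 49 listed neighbours within 40 kb of each, mean density was lowest between 73 and 92 bp upstream of the start.

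**Figure D1:**
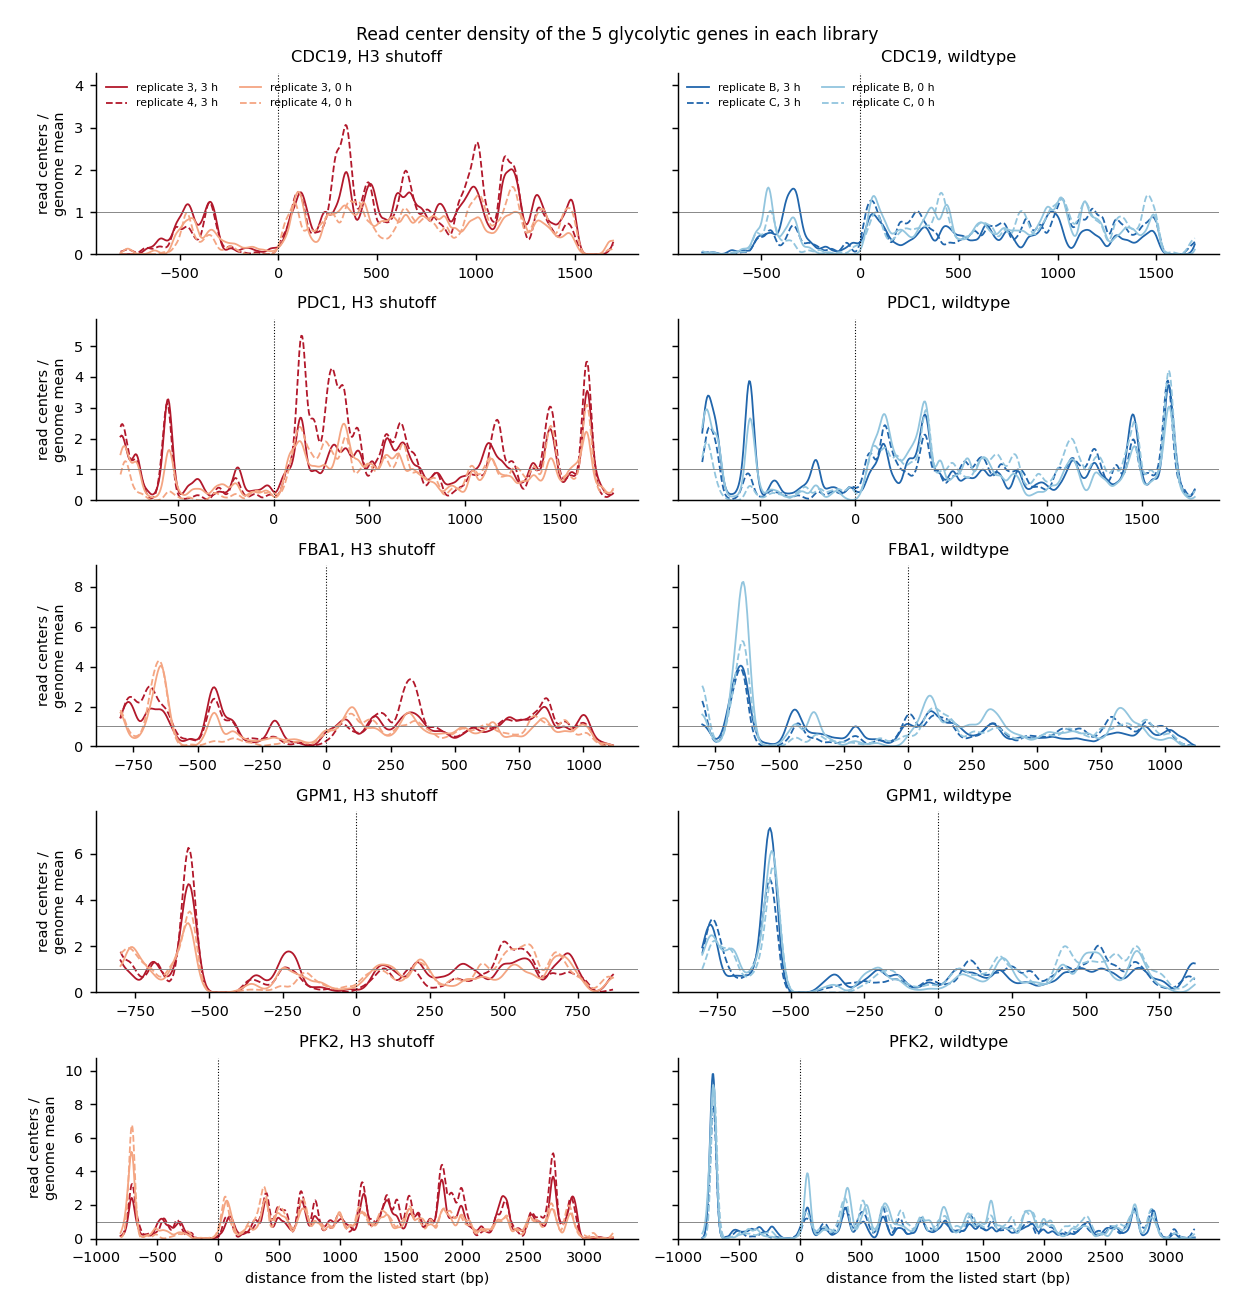
Read center density relative to the genome mean of 1 (grey line), smoothed with an SD of 20 bp, against distance in bp from the listed start (dotted line) for each gene, with H3 shutoff on the left and wildtype on the right. Solid and dashed lines are the replicates of a strain, dark lines 3 h and light lines 0 h. Over the bodies of CDC19, PDC1, FBA1 and PFK2 the dark H3 shutoff lines run above the light ones along most of the gene.

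Upstream of each start, the 150 bp with the fewest read centers in the 8 libraries pooled was located. Being picked as the lowest, it lies below the genome mean by choice, and the lowest stretch of other genes was not compared. The emptiest 150 bp within 600 bp of the start lay 185 to 36 bp upstream at PFK2, with 0 to 2 read centers per library, where the genome mean is 62.1. At CDC19 it lay 198 to 49 bp upstream and held 6 and 2 in H3 shutoff replicates 3 and 4 at 3 h, against 8 and 0 at 0 h. The same stretch of CDC19 held 7 and 9 in wildtype replicates B and C at 3 h, against 1 and 1 at 0 h. GPM1 was emptiest further away, 530 to 381 bp upstream, with 0 to 4 read centers per library. FBA1 (181 to 32 bp upstream, 5 to 17 per library) and PDC1 (370 to 221 bp upstream, 5 to 23) were the least empty. A count of 0 allows up to 3 read centers, so no difference between groups was detectable in the stretches of PFK2 and GPM1.

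Over the gene bodies, from listed start to end, the data show that CDC19, PDC1 and PFK2 gained read centers in H3 shutoff cells between 0 and 3 h. FBA1 had the same sign in both H3 shutoff cultures without passing the test, and GPM1 had no common direction. In wildtype the fitted change was below 0 for all 5 genes and PFK2 fell. The change in H3 shutoff exceeded that in wildtype at CDC19, PDC1 and PFK2. These calls come from a model that pairs the libraries of a culture. Without this block CDC19 alone rose in H3 shutoff (adjusted p = 0.0397, against 0.0586 for PDC1 and 0.0734 for PFK2), and PDC1 was lost in the difference (adjusted p = 0.0563). With the wildtype 3 h libraries exchanged, since the letters B and C gave no common deviation over all windows (r = -0.03), no member body rose in H3 shutoff, the fall of PFK2 in wildtype was lost, and CDC19 and PFK2 alone passed in the difference.

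PFK2 held 1493 and 1782 read centers in H3 shutoff replicates 3 and 4 at 3 h, against 1251 and 1386 at 0 h. In wildtype replicates B and C it held 771 and 940 at 3 h, against 1150 and 1191 at 0 h. All H3 shutoff counts at 3 h were thus the highest and all wildtype counts at 3 h the lowest, with no overlap between 3 h and 0 h in either strain. The share of listed bodies without overlap is not given, here or for the genes below. Fitted log2 changes were 0.31 ± 0.08 in H3 shutoff (SE, adjusted p = 0.0409) and -0.46 ± 0.08 in wildtype (adjusted p = 0.0334). The difference between them was 0.77 ± 0.11 (adjusted p = 0.0146). As a level per length, PFK2 stood at the 64.7th and 80.9th percentiles of listed bodies in H3 shutoff at 3 h, against the 34.4th and 48.8th at 0 h. In wildtype it stood at the 6.94th and 9.73rd at 3 h, against the 31.5th and 27.4th at 0 h.

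CDC19 held 709 and 757 read centers in the H3 shutoff replicates at 3 h, against 488 and 532 at 0 h. Its wildtype counts were 297 and 434 at 3 h, against 446 and 482 at 0 h. The groups did not overlap in either strain, and wildtype replicate B at 3 h stood lowest. The log2 change was 0.52 ± 0.11 in H3 shutoff (adjusted p = 0.0282) and -0.36 ± 0.12 in wildtype (adjusted p = 0.0984), and the difference was 0.88 ± 0.17 (adjusted p = 0.0195). Per length this body was among the emptiest of the listed ones at 0 h, with 28.7 and 31.3 read centers per 100 bp in H3 shutoff and 26.3 and 28.4 in wildtype. At 3 h it reached 41.8 and 44.6 per 100 bp in H3 shutoff, close to the genome mean of 41.4, and stood at 17.5 and 25.6 in wildtype.

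PDC1 was the fullest of the 5 bodies per length at 3 h in every library. It held 897 and 1186 read centers in the H3 shutoff replicates at 3 h, against 736 and 819 at 0 h. Wildtype replicates B and C had 731 and 827 at 3 h, against 787 and 933 at 0 h. H3 shutoff counts at 3 h and 0 h did not overlap, while the wildtype ones did. Its log2 change was 0.41 ± 0.09 in H3 shutoff (adjusted p = 0.0282) and -0.14 ± 0.09 in wildtype (adjusted p = 0.325), with a difference of 0.55 ± 0.13 (adjusted p = 0.0266).

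FBA1 held 486 and 552 read centers in H3 shutoff at 3 h, against 407 and 410 at 0 h. Its counts in wildtype replicates B and C were 320 and 380 at 3 h, against 433 and 367 at 0 h, so the wildtype groups overlapped. The log2 change of 0.34 ± 0.13 in H3 shutoff (adjusted p = 0.109) and the difference of 0.54 ± 0.19 (adjusted p = 0.0741) did not pass. GPM1, the shortest gene, held 320 and 285 in H3 shutoff at 3 h, against 285 and 353 at 0 h. Its wildtype counts were 257 and 323 at 3 h, against 280 and 369 at 0 h. All groups of GPM1 overlapped, and the difference was 0.09 ± 0.20 (adjusted p = 0.771).

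**Figure D2:**
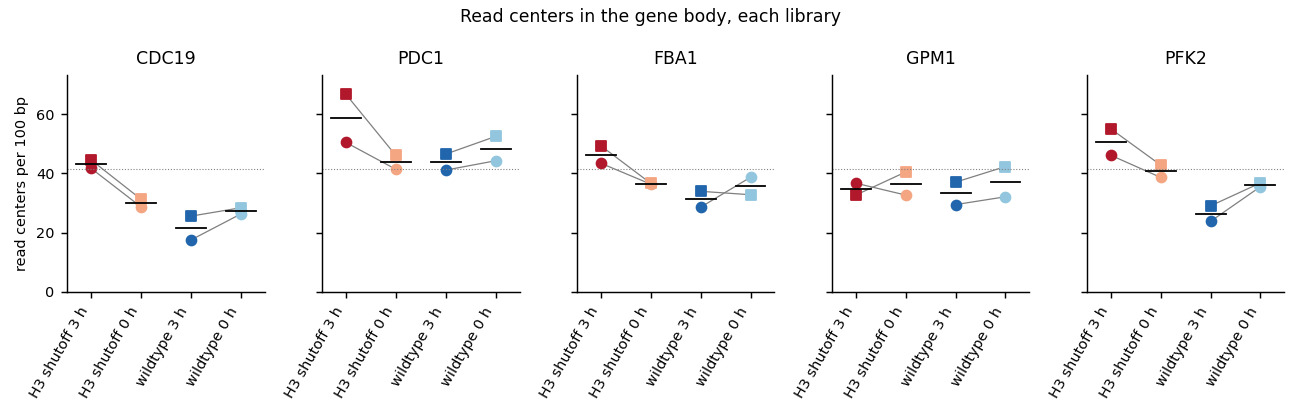
Read centers per 100 bp of gene body in each library, with circles for replicates 3 and B, squares for replicates 4 and C, grey lines joining the libraries of a culture, black bars at group means and a dotted line at the genome mean of 41.4. In H3 shutoff all 8 points of CDC19, PDC1, FBA1 and PFK2 at 3 h lie above the 0 h point of the same culture.

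Of the 5 bodies, 3 rose in H3 shutoff, where 5.78% of the 1609 listed bodies tested did, and 3 rose in the difference, where 9.51% did. In wildtype 1 of 5 fell, against 4.23% of bodies. The difference of CDC19 lay at the 97.9th percentile of all listed bodies, PFK2 at the 96.1st, PDC1 at the 90.9th, FBA1 at the 90.4th and GPM1 at the 61.6th. Without wildtype replicate B none of the listed bodies passed in the difference, and the adjusted p became 0.0857 for CDC19, 0.1 for PDC1 and 0.0728 for PFK2. The fall of PFK2 in wildtype was then also lost, and without H3 shutoff replicate 4 no member body passed in H3 shutoff. With only fragments of 140 to 160 bp, scaled to their own number in each library, CDC19, PDC1 and PFK2 kept a call in the difference and FBA1 gained one, at 0.85 (adjusted p = 0.0342).

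Within the genes, read centers were counted in the 100 bp around each nucleosome center. Of 65 windows, 59 had at least 80 read centers over the 8 libraries and were tested, and the 6 others lay at low centers upstream of CDC19, PDC1 and PFK2 and at the end of PFK2. In H3 shutoff 11 of the 59 rose and 4 fell, of 28 with an unadjusted p under 0.05, while over the genome 5.19% of windows rose and 21.9% fell. In the difference 10 rose and 1 fell, against 4.61% and 16.2% of all windows. In wildtype no member window passed in edgeR (0.510% of all windows rose and 1.21% fell). There 12 of the 59 had an unadjusted p under 0.05, and DESeq2 called 0. Of all 60770 windows, 11982 had an unadjusted p under 0.05 in wildtype and 24186 in H3 shutoff. The member count in wildtype is thus near the share of all windows. The median log2 change of the 59 windows was 0.53 in H3 shutoff and -0.28 in wildtype, beside -0.35 and 0.07 over all windows. The counts depend on single cultures. Leaving out a culture leaves its strain with 1 library at each time. The number of windows called then moved over the whole genome as well as at the members. The median log2 change of all windows in H3 shutoff was -0.27 without H3 shutoff replicate 4 and -0.41 without replicate 3.

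Of 42 body windows tested, 33 had a log2 change above 0 in H3 shutoff and 6 had one in wildtype. Of 17 upstream windows tested, 14 were above 0 in H3 shutoff and 11 in wildtype. The median log2 change of body windows was 0.37 in H3 shutoff and -0.34 in wildtype, and that of upstream windows 0.89 and 0.28. The median difference was 0.67 in the bodies and 0.35 upstream. Windows of a gene share the same 8 libraries, and body against upstream was not tested. Over all windows, inside and outside genes together, 29.5% were above 0 in H3 shutoff and 55.4% in wildtype. In H3 shutoff 8 of the 42 body windows rose and 1 fell. All 7 body windows of CDC19 were above 0 in H3 shutoff and all 7 were below 0 in wildtype. All 8 of PDC1 were above 0 in H3 shutoff, and 12 of 16 were at PFK2. At GPM1 2 of 5 were above 0 in H3 shutoff and none in wildtype.

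Where the 8 libraries were scaled by TMM, which centers most windows on no change, the median of all windows in H3 shutoff moved to -0.02. Over the genome 6370 windows then rose and 4551 fell, against 3152 and 13330 unscaled, and 24 of the 59 member windows rose and none fell. In the difference 5423 windows rose and 3549 fell with TMM, against 2803 and 9832, and 19 member windows rose. For listed bodies in H3 shutoff, 122 rose and 62 fell with TMM, against 93 and 117, with CDC19, PDC1 and PFK2 still called in both comparisons. For listed promoters 162 rose and 102 fell in H3 shutoff with TMM, against 119 and 170, and in the difference 102 rose and 53 fell, against 57 and 187. DESeq2 called 3 member windows in H3 shutoff, all higher, and 1 in the difference. Of the 5 bodies it called 2 in H3 shutoff, where edgeR called 3. Over 1609 listed bodies DESeq2 called 43 higher and 9 lower in H3 shutoff. In the difference it called 2 of the 5 bodies and gave no adjusted p for the other 3.

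**Figure D3:**
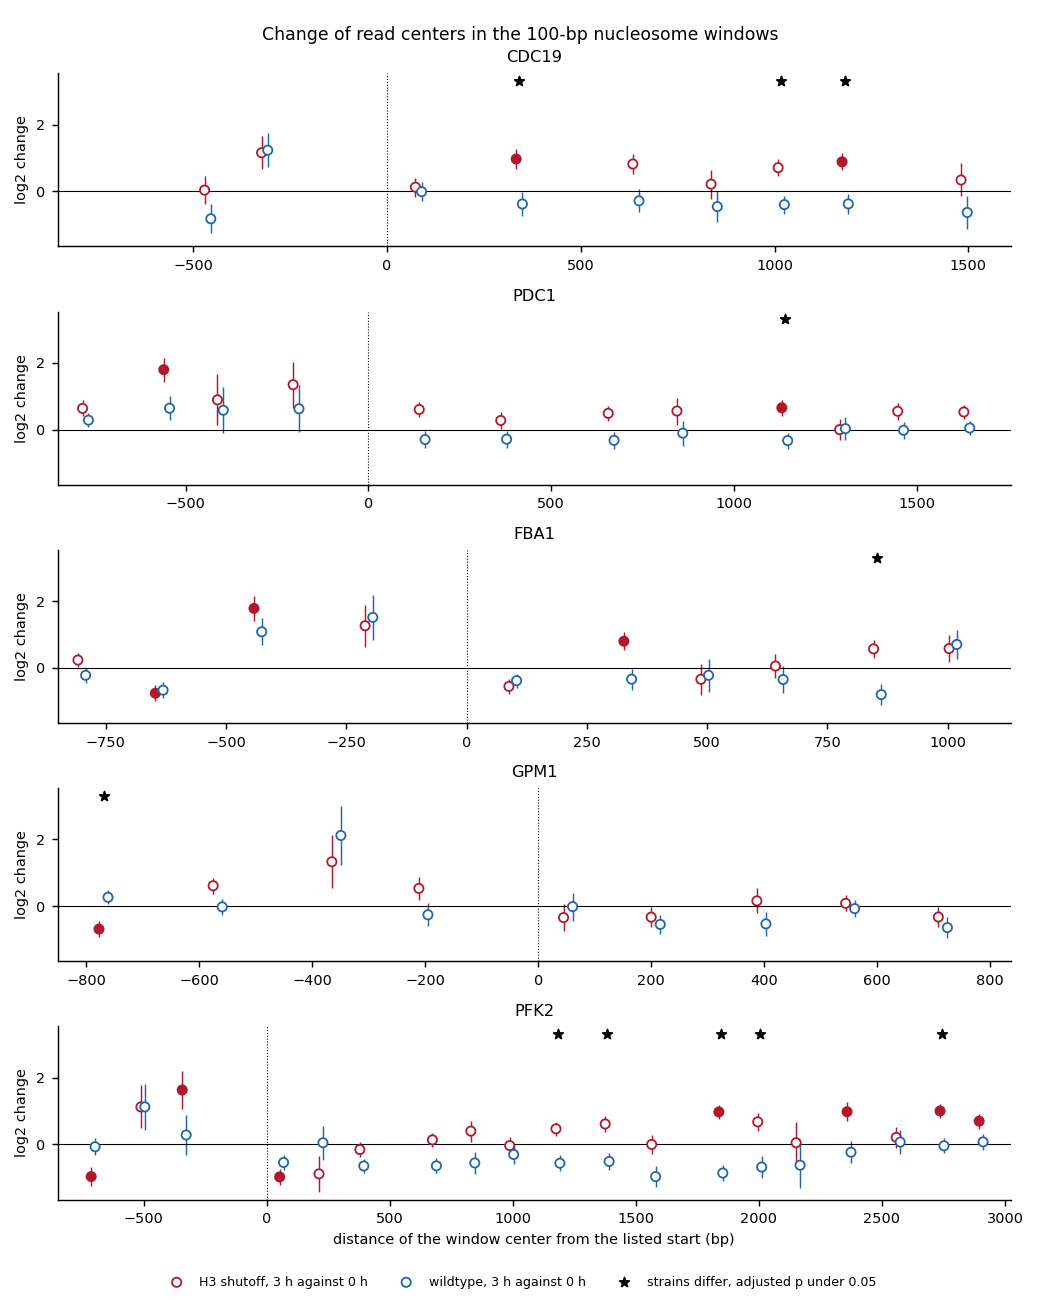
Log2 change from 0 to 3 h of the read centers in each tested 100-bp window, against the distance in bp of its center from the listed start, in H3 shutoff (red) and wildtype (blue). Bars are SE, filled points have an adjusted p under 0.05, and stars mark windows whose change differed between the strains. Stars lie over the bodies of CDC19 (3), PDC1 (1), FBA1 (1) and PFK2 (5) and at -769 bp of GPM1.

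At PFK2 the nucleosome centered 1845 bp into the gene had the largest difference of the 59 windows. It held 111 and 146 read centers in the H3 shutoff replicates at 3 h, against 66 and 64 at 0 h. In wildtype replicates B and C it held 28 and 35 at 3 h, against 57 and 57 at 0 h. Both strains thus had separate groups that moved apart, with log2 changes of 0.97 ± 0.20 in H3 shutoff (adjusted p = 0.00325) and -0.86 ± 0.25 in wildtype (adjusted p = 0.0837). The difference was 1.83 ± 0.32 (adjusted p = 0.00268). The window at 2744 bp held 108 and 150 in H3 shutoff at 3 h, against 58 and 70 at 0 h. In wildtype it held 50 and 58 at 3 h, against 59 and 52 at 0 h, with no common direction, and the difference was 1.04 ± 0.31 (adjusted p = 0.0248). At 1183 bp PFK2 held 84 and 103 in H3 shutoff at 3 h, against 63 and 72 at 0 h, and 38 and 41 in wildtype at 3 h, against 65 and 52 at 0 h (difference 1.03 ± 0.31, adjusted p = 0.0293). At 1383 bp it held 80 and 88 in H3 shutoff at 3 h, against 49 and 61 at 0 h, and 27 and 44 in wildtype at 3 h, against 49 and 51 at 0 h (difference 1.12 ± 0.35, adjusted p = 0.0318). At 2003 bp it held 63 and 96 in H3 shutoff at 3 h, against 49 and 49 at 0 h, and 16 and 29 in wildtype at 3 h, against 35 and 36 at 0 h (difference 1.35 ± 0.42, adjusted p = 0.0327). In the windows at 1183, 1383 and 2003 bp, 3 h lay above 0 h in H3 shutoff and below it in wildtype, without overlap. Windows called in the difference were picked from these same counts, so separate groups go with that choice. The share of all windows without overlap is not given. The windows at 2366 and 2903 bp rose in H3 shutoff, with differences of 1.21 and 0.62 that did not pass.

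The start of PFK2 ran the other way. Its +1 window, the first center from 50 bp before the start onwards, lay at 60 bp and held 36 and 42 read centers in H3 shutoff at 3 h, against 75 and 78 at 0 h. In wildtype replicates B and C it held 57 and 48 at 3 h, against 101 and 55 at 0 h. Every culture was lower at 3 h, and the window fell in H3 shutoff by 0.97 on the log2 scale (SE 0.24, adjusted p = 0.00774). In wildtype the change was -0.54 ± 0.23 (adjusted p = 0.207), and the difference of -0.43 ± 0.33 did not pass (adjusted p = 0.361). Along the 16 tested windows of the PFK2 body, the log2 change in H3 shutoff was higher further from the start (Pearson's r 0.75, Spearman's rho 0.76), and in wildtype less so (0.33 and 0.29). FBA1 and GPM1 had the same sign in H3 shutoff over fewer windows, 6 and 5, while CDC19 and PDC1 had weak values of either sign. Pearson's r and Spearman's rho in H3 shutoff were 0.56 and 0.43 at FBA1 and 0.30 and 0.60 at GPM1. They were 0.07 and 0.11 at CDC19, and -0.07 and -0.12 at PDC1. In wildtype they were 0.77 and 0.67 at PDC1 and 0.40 and 0.26 at FBA1. At GPM1 they were -0.41 and -0.60 in wildtype, and at CDC19 -0.84 and -0.68. These windows share the same 8 libraries, and the values are a description.

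CDC19 had 3 windows that rose in the difference. The one at 341 bp held 63 and 112 read centers in H3 shutoff at 3 h, against 46 and 41 at 0 h. It held 21 and 32 in wildtype replicates B and C at 3 h, against 41 and 28 at 0 h, where the groups overlapped. The log2 change was 0.97 ± 0.30 in H3 shutoff (adjusted p = 0.0233), and the difference was 1.35 ± 0.46 (adjusted p = 0.0466). At 1182 bp the counts were 84 and 95 in H3 shutoff at 3 h, against 38 and 60 at 0 h. They were 22 and 45 in wildtype at 3 h, against 42 and 43 at 0 h, and the difference was 1.26 ± 0.39 (adjusted p = 0.0314). In H3 shutoff every count at 3 h was above those at 0 h in both windows. The third, at 1017 bp, held 54 and 83 in H3 shutoff at 3 h, against 32 and 52 at 0 h, and 27 and 47 in wildtype at 3 h, against 45 and 51 at 0 h. It passed in the difference at 1.11 ± 0.38 (adjusted p = 0.046). By contrast the +1 window at 81 bp held 48 and 49 in H3 shutoff at 3 h, against 48 and 41 at 0 h. In wildtype it held 38 and 44 at 3 h, against 48 and 35 at 0 h, and its difference of 0.14 ± 0.41 did not pass (adjusted p = 0.834). The -1 center of CDC19, at -74 bp, held 0 to 7 read centers per library and was not tested.

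PDC1 rose in the difference at 1139 bp, where H3 shutoff had 67 and 83 read centers at 3 h, against 47 and 48 at 0 h. Wildtype replicates B and C had 45 and 51 at 3 h, against 47 and 75 at 0 h, and the difference was 0.98 ± 0.33 (adjusted p = 0.0463). Its +1 center by the counting rule was a weak one at -27 bp with 1 to 15 read centers per library, which was not tested. The first strong center of the body, at 147 bp, held 80 and 148 in H3 shutoff at 3 h, against 63 and 84 at 0 h. In wildtype it held 58 and 77 at 3 h, against 100 and 67 at 0 h, and the difference of 0.90 ± 0.34 did not pass (adjusted p = 0.0679).

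FBA1 rose in the difference at 854 bp, near its end. There H3 shutoff had 63 and 77 read centers at 3 h, against 46 and 48 at 0 h, and wildtype replicates B and C had 25 and 38 at 3 h, against 69 and 42 at 0 h. The log2 difference was 1.37 ± 0.41 (adjusted p = 0.0284). At 335 bp FBA1 rose in H3 shutoff, with 68 and 121 at 3 h against 58 and 48 at 0 h (0.80 ± 0.28, adjusted p = 0.0402). Its +1 window at 96 bp held 44 and 39 in H3 shutoff at 3 h, against 66 and 56 at 0 h. In wildtype it held 64 and 55 at 3 h, against 82 and 73 at 0 h. Both strains were lower at 3 h in every culture, with log2 changes of -0.55 ± 0.23 (adjusted p = 0.0839) and -0.38 ± 0.21 (adjusted p = 0.329). The difference of -0.17 ± 0.31 did not pass (adjusted p = 0.722).

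In GPM1 no body window passed in any comparison. Its +1 window at 53 bp held 29 and 27 in H3 shutoff at 3 h, against 35 and 36 at 0 h, and 30 and 24 in wildtype at 3 h, against 22 and 33 at 0 h. The difference there was -0.33 ± 0.58 (adjusted p = 0.713). The GPM1 window that fell in the difference lay at -769 bp, within NNR2, the neighbouring gene. It held 35 and 48 in H3 shutoff at 3 h, against 64 and 69 at 0 h, and 85 and 94 in wildtype at 3 h, against 81 and 68 at 0 h (difference -0.95 ± 0.31, adjusted p = 0.0402).

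Upstream of the starts, 1 window each of PDC1, FBA1 and PFK2 rose in H3 shutoff. At PDC1, at -552 bp, the counts were 81 and 78 in H3 shutoff replicates 3 and 4 at 3 h, against 41 and 8 at 0 h. They were 98 and 23 in wildtype replicates B and C at 3 h, against 68 and 12 at 0 h. Replicates 3 and B were higher than replicates 4 and C at 0 h, and the log2 change was 1.79 ± 0.36 in H3 shutoff (adjusted p = 0.00263). The 0 h libraries of replicates 3 and B also had the longer fragments of their strain, and the part of fragment length in this was not tested. FBA1, at -434 bp, had 88 and 71 in H3 shutoff at 3 h, against 43 and 8 at 0 h, and 58 and 32 in wildtype at 3 h, against 33 and 11 at 0 h. All 4 cultures were higher at 3 h there, and the change was 1.78 ± 0.38 in H3 shutoff (adjusted p = 0.00339) and 1.08 ± 0.40 in wildtype (adjusted p = 0.156). PFK2 rose at -336 bp, with 34 and 34 in H3 shutoff at 3 h, against 13 and 9 at 0 h. Wildtype had 21 and 12 there at 3 h, against 17 and 10 at 0 h. The differences of these 3 windows were 1.15, 0.70 and 1.35 and none passed.

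The 3 upstream windows that fell in H3 shutoff were the one of GPM1 in NNR2 and one each of PFK2 and FBA1. PFK2, at -706 bp, held 69 and 93 at 3 h, against 144 and 170 at 0 h, while wildtype held 246 and 199 at 3 h, against 244 and 221 at 0 h. This window fell by 0.96 on the log2 scale in H3 shutoff (SE 0.28, adjusted p = 0.0173), and the difference of -0.89 ± 0.37 did not pass (adjusted p = 0.0961). FBA1, at -639 bp and within MPE1, held 67 and 88 in H3 shutoff at 3 h, against 123 and 138 at 0 h, and 130 and 114 in wildtype at 3 h, against 237 and 156 at 0 h. All 4 cultures were lower at 3 h, and the window fell in H3 shutoff by 0.76 (SE 0.25, adjusted p = 0.0308), with a wildtype change of -0.67 ± 0.23 (adjusted p = 0.131). The -1 windows that could be tested, at -198 bp of PDC1 and -203 bp of FBA1 and GPM1, did not pass. Their differences were 0.72 ± 0.98 at PDC1, -0.25 ± 0.92 at FBA1 and 0.79 ± 0.48 at GPM1, so values of either sign lie within 2 SE of each.

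The promoters, the 300 bp before the start, held fewer read centers per length than the genome mean in every library. PFK2 held 17 and 16 read centers in H3 shutoff at 3 h, against 13 and 18 at 0 h, and 31 and 13 in wildtype at 3 h, against 7 and 19 at 0 h. CDC19 held 13 and 10 in H3 shutoff at 3 h, against 21 and 6 at 0 h, and 25 and 19 in wildtype at 3 h, against 5 and 9 at 0 h. PFK2 and CDC19 lay between the 1.43rd and 7.99th percentiles of listed promoters in all 8 libraries. FBA1 and PDC1 lay between the 8.05th and 30.4th, and GPM1 between the 25.2nd and 40.7th. FBA1 held 50 and 31 in H3 shutoff at 3 h, against 43 and 25 at 0 h, and 64 and 48 in wildtype at 3 h, against 15 and 33 at 0 h. PDC1 held 58 and 36 in H3 shutoff at 3 h, against 44 and 24 at 0 h, and 70 and 28 in wildtype at 3 h, against 28 and 43 at 0 h. GPM1 had the highest mean of each group, though PDC1 was higher in wildtype replicate B at 3 h. It held 76 and 48 in H3 shutoff at 3 h, against 62 and 44 at 0 h, and 65 and 55 in wildtype at 3 h, against 60 and 60 at 0 h.

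**Figure D4:**
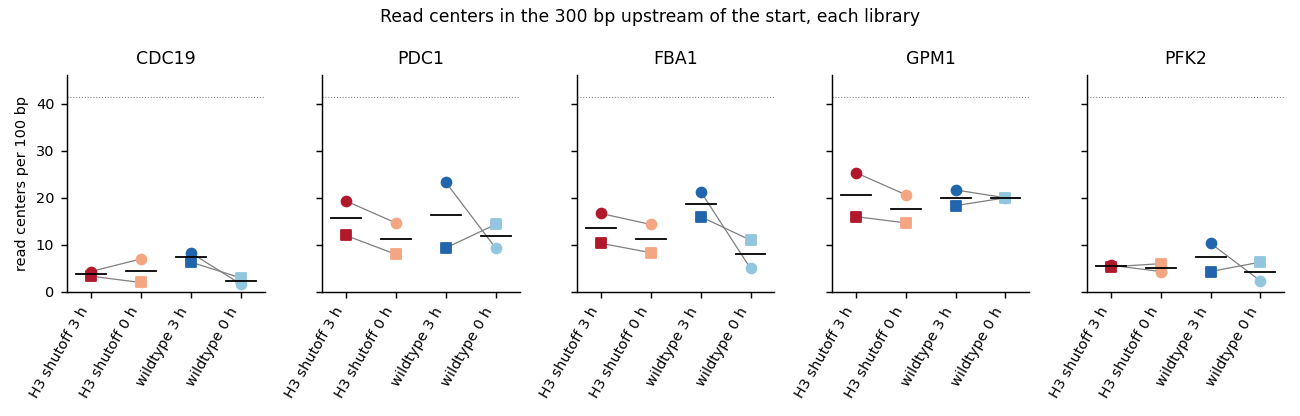
Read centers per 100 bp in the 300 bp upstream of each start, drawn as for the gene bodies (circles replicates 3 and B, squares replicates 4 and C, bars group means, dotted line the genome mean of 41.4). Every point lies below the genome mean, and the highest, GPM1 in H3 shutoff replicate 3 at 3 h, is 25.3.

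None of the 5 promoters passed in any comparison in edgeR, where 18.1% of the 1594 listed promoters tested were called in H3 shutoff, 4.45% in wildtype and 15.3% in the difference. At an unadjusted p under 0.05 the counts were 0 in H3 shutoff, 1 in wildtype and 0 in the difference. DESeq2 called none, but in H3 shutoff it gave no adjusted p for 4 of the 5 promoters. The SE of the difference was between 0.47 at GPM1 and 1.17 at CDC19, so changes of about that log2 size were not detectable at this depth. With 500 bp in place of 300, FBA1 and PFK2 rose in H3 shutoff (log2 1.05 and 1.33, adjusted p = 0.0228 and 0.0474), and that stretch holds the upstream windows described above.

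The nucleosomes that the study's authors called in each library were compared as well. The 5 genes held 60 and 60 of them in the H3 shutoff replicates at 3 h, against 60 and 59 at 0 h, and 64 and 62 in the wildtype replicates at 3 h, against 62 and 64 at 0 h. Their number thus differed little between libraries while the read centers per call changed. Within gene bodies the median call held 56 and 70 read centers in H3 shutoff at 3 h, against 47 and 47 at 0 h. In wildtype it held 30 and 39.5 at 3 h, against 42.5 and 48 at 0 h.

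Fuzziness, the SD of the read centers of a call, was high on these genes from the beginning. The median over their calls was 37.6 and 38.1 bp in H3 shutoff at 3 h, against 40.1 and 38.3 bp at 0 h. In wildtype it was 36.6 and 38.9 bp at 3 h, against 35.8 and 35.6 bp at 0 h. Over all calls of the same libraries the median was 37.4 and 37.2 bp in H3 shutoff at 3 h, against 33.2 and 32.7 bp at 0 h, and 28.0 and 28.1 bp in wildtype at 3 h, against 27.5 and 27.5 bp at 0 h. The glycolytic genes thus stood above the library median in all 8 libraries, by most in wildtype and by less than 1 bp in H3 shutoff at 3 h. Their own median changed by -1.39 ± 1.57 bp in H3 shutoff and by 2.03 ± 1.71 bp in wildtype (SD, n = 2 cultures each). With 2 cultures per strain an exact two-sided permutation test cannot give a p below 0.333, the value it gave.

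**Figure D5:**
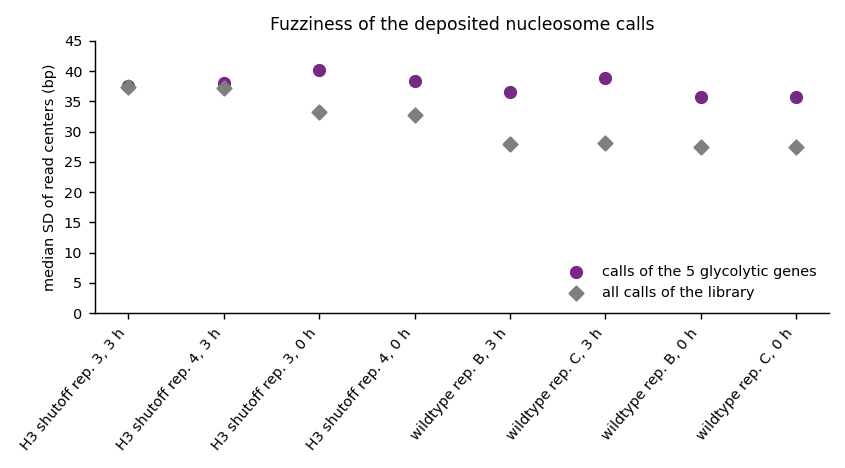
Median SD of read centers in bp of the authors' calls in each library, for calls of the 5 glycolytic genes (circles) and for all calls (diamonds), with H3 shutoff on the left and wildtype on the right. Circles lie between 35.6 and 40.1 bp in all 8 libraries, while diamonds are at 37.4 and 37.2 bp in H3 shutoff at 3 h and between 27.5 and 28.1 bp in wildtype.

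By the study's test of mean positions within a culture, 7 of 57 calls of H3 shutoff replicate 3 and 15 of 57 of replicate 4 had altered positions at 3 h. Over the genome 37.2% and 41.2% of calls did. In wildtype, 9 of 58 calls of replicate B and 19 of 59 of replicate C were altered, where 10.7% and 9.77% of all calls were. As shares this is 12.3% and 26.3% in H3 shutoff and 15.5% and 32.2% in wildtype, so in H3 shutoff the genes lay below the genome and in wildtype above it. The difference between the genes and the genome was not tested. Some altered calls in both strains were neighbouring calls at 0 h matched to the same call at 3 h. An example is PDC1 in wildtype replicate C, where the calls at 1137 and 977 bp shared a 3 h call of 37 read centers. With an overlap of at least 73 bp, 12 of 52 calls of wildtype replicate C were altered. GPM1 had the most altered calls for its length in H3 shutoff replicate 4, 6 of 8, and PFK2 few, 1 of 18. In H3 shutoff replicate 3 GPM1 had 0 of 7 and PFK2 0 of 17. In wildtype replicates B and C GPM1 had 3 of 8 and 5 of 7, and PFK2 0 of 17 and 2 of 20.

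By the study's test of occupancy, 2 of 57 calls were reduced and 1 was retained in H3 shutoff replicate 3, where the genome had 2.52% reduced and 1.60% retained. In replicate 4 none of 57 was reduced and 5 were retained, against 2.79% and 4.25% over the genome. In wildtype replicate B 2 of 58 were reduced and none retained (2.43% and 1.51% of all calls), and in replicate C 1 of 59 was reduced and 1 retained (0.356% and 0.397%). The retained calls of replicate 4 included FBA1 at 339 bp with 114 read centers at 3 h, against 46 at 0 h, and PDC1 at 377 bp with 152 at 3 h, against 62 at 0 h. The retained call of H3 shutoff replicate 3, CDC19 at 1540 bp (37 read centers at 3 h, 4 at 0 h), shared its 3 h call with the call at 1378 bp. That of wildtype replicate C, FBA1 at 1078 bp (43 at 3 h, 6 at 0 h), shared its 3 h call with the call at 925 bp. These tests weigh fragments within a culture and not the spread between cultures.

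At 0 h the H3 shutoff strain was not told apart from wildtype on these genes. No body, promoter or window passed in edgeR, none had a p under 0.05 before adjustment among the bodies and promoters, and 5 of the 59 windows did. Hardly any feature passed in this comparison: 0 of 1609 listed bodies, 0 of 1594 listed promoters and 2 of 60770 windows. Before adjustment 99 bodies, 52 promoters and 3833 windows had a p under 0.05, so the lack of calls is not particular to these genes. DESeq2 also called none of the members. The log2 differences of the bodies, H3 shutoff minus wildtype, lay between -0.15 and 0.17. Per length, PDC1 had the highest and CDC19 the lowest mean at 0 h in both strains. The other three lay between them, with GPM1 overlapping PFK2 and FBA1 in both strains and PFK2 overlapping PDC1 in H3 shutoff.

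Of 8 other listed genes of sugar metabolism (PDC5, PGM1, PGM2, ADH2, ADH3, FBP1, PCK1 and ZWF1), 1 body passed in the difference, where 18.6% of listed bodies did. It was ADH3, the mitochondrial alcohol dehydrogenase, at 0.51 ± 0.13 (adjusted p = 0.0333). In H3 shutoff 1 of the 8 passed (13.1% of listed bodies), FBP1, the gluconeogenic fructose-1,6-bisphosphatase, which fell by 0.51 (SE 0.10, adjusted p = 0.0227). In wildtype 1 passed (5.72%), ZWF1, the entry enzyme of the pentose phosphate pathway, which fell by 0.50 (SE 0.09, adjusted p = 0.0334). The median log2 difference of the 5 glycolytic bodies was 0.55, beside 0.01 for these 8 and -0.04 for all listed bodies. Among their promoters ADH3 rose in H3 shutoff, with 173 and 242 read centers at 3 h, against 94 and 85 at 0 h (1.20 ± 0.18, adjusted p = 1.11e-06). Wildtype replicates B and C had 101 and 81 there at 3 h, against 132 and 69 at 0 h, and the difference was 1.31 ± 0.27 (adjusted p = 0.000632). PGM2, a phosphoglucomutase gene, rose in wildtype (0.65 ± 0.19, adjusted p = 0.0394), and the other promoters did not pass.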

How the data were processed

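The authors aligned read pairs to sacCer1 with Bowtie 0.12.6, kept pairs 100 to 200 bp apart and drew the same number from each paired-end library. Deposited tables give fragment starts and ends in bp and, apart from these, nucleosome calls made by the authors for every library, with positions, lengths and SDs in bp, counts of read centers, and a fraction (the share of read centers on the center base) that entered no test. Deposited counts were not normalized further. The members and lists were chosen with earlier results of these data known. No sequences are shown, and libraries of other kinds were not analysed here. The coordinate build could not be checked against a genome.

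Read centers of all libraries were pooled and smoothed (SD 10 bp) to call centers. Counts in 100-bp windows, promoters (300 bp) and gene bodies were tested over all features with at least 80 read centers, using edgeR 4.0.16 (R 4.3.3, limma 3.58.1) quasi-likelihood with Benjamini-Hochberg adjustment at 0.05, no scaling, and culture as a block, because each culture gave both times. SE is the log2 change divided by the root of F. The 0 h comparison had no block. Deviations of same-culture libraries from their group mean had an r over 60770 windows of 0.33 in H3 shutoff and -0.03 in wildtype (0.48 and 0.51 over the 59 member windows). In wildtype the pairing comes from the letters B and C alone. Listed transcripts of chromosome 10, whose starts are offset, were left out. Calls at 0 and 3 h with over 5 read centers and 30 bp or more of shared length were paired with the nearest and compared by position and by a binomial test with Bonferroni correction at 0.01. A 3 h call may pair with more than 1 call at 0 h. All members are described, and windows called in the difference and the +1 and -1 windows are given in full. Windows called in H3 shutoff and the PDC1 window at 147 bp were added after their values were seen. Alternatives were TMM, DESeq2 1.42.0, filters, fragment lengths, widths, pairing and leaving out cultures, and scaling of the 140 to 160 bp fragments was added after seeing the data. Other steps used matplotlib 3.10.9, scipy 1.17.1, numpy 2.4.6 and pandas 2.3.3 under Python 3.11.15, and fits and classes were tested on simulated data. P-values of the fits with a culture block measure the spread of the change between these cultures. Those of the 0 h comparison come from group means over all libraries, with libraries of a culture taken as separate. Those of the call classes weigh fragments within a culture.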

Additional observations from a re-analysis of the deposited data

Results flagged for a closer look

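The change from 0 to 3 h differed between H3 shutoff and wildtype, by edgeR's test of the difference, at 3 gene bodies and 11 nucleosome windows of the glycolytic genes. As log2 differences, H3 shutoff minus wildtype, the bodies gave 0.88 at CDC19, 0.55 at PDC1 and 0.77 at PFK2. The windows of CDC19 gave 1.35 at 341 bp, 1.11 at 1017 bp and 1.26 at 1182 bp. PDC1 gave 0.98 at 1139 bp and FBA1 1.37 at 854 bp. GPM1 gave -0.95 at -769 bp, the only negative one of these 14. PFK2 gave 1.03 at 1183 bp, 1.12 at 1383 bp, 1.83 at 1845 bp, 1.35 at 2003 bp and 1.04 at 2744 bp.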

How the results depend on the processing

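Each culture gave both times, so the culture pairing was in the model. With no replicate block, member windows that rose in the difference numbered 6 (reported 10) and those that fell 0 (reported 1), and 1 body rose in H3 shutoff (reported 3). With the wildtype 3 h libraries exchanged, 2 windows fell in H3 shutoff (reported 4), 0 fell in the difference, 0 bodies rose in H3 shutoff and 0 fell in wildtype (reported 1). CDC19 and PFK2 still passed in the difference and PDC1 did not. Results without the filter or with chromosome 10 kept had the same direction and calls.

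With TMM 24 windows rose and 0 fell in H3 shutoff (reported 11 and 4), and 19 rose and 0 fell in the difference. With DESeq2 3 rose and 0 fell, and 1 rose and 0 fell in the difference, where it gave no adjusted p for 35 windows and 3 bodies. In H3 shutoff it gave none for 9 windows and 4 promoters. Differences at 96 bp of FBA1 became 0.22 with TMM and 0.26 with DESeq2 (reported -0.17), at its window at -203 bp 0.13 and 0.19 (reported -0.25), and at 53 bp of GPM1 0.0665 and 0.099 (reported -0.33). DESeq2 gave 0.0195 for the H3 shutoff change at that GPM1 window and 0.0237 for the CDC19 promoter.

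With fragments of 140 to 160 bp unscaled, whose share is lower at 3 h in every culture, 2 windows rose in H3 shutoff, 1 fell in wildtype, and 1 rose and 0 fell in the difference. For bodies 0 rose and 1 fell in H3 shutoff, 3 fell in wildtype and 1 rose in the difference. H3 shutoff changes became -0.0798 at the PDC1, -0.0472 at the FBA1 and -0.33 at the PFK2 body, -0.77 at 81 bp of CDC19 and -0.0345 at 1845 bp of PFK2. The difference became -0.0939 at the GPM1 body and -0.36 at 81 bp of CDC19, and the wildtype change -0.28 at the PDC1 promoter. Scaled to their own number, 1 window fell in H3 shutoff, and 4 rose and 0 fell in the difference. That scaling gave -0.0631 for the PDC1 promoter in wildtype, differences of 0.0157 for the FBA1 promoter and 0.0165 for its window at 96 bp, and -0.16 in H3 shutoff at 81 bp of CDC19. GPM1 at 53 bp gave 0.0115 in H3 shutoff and 0.21 in the difference.

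Windows of 140 bp gave 2 that fell in H3 shutoff and 0 in the difference, and wildtype changes of 0.0819 at 81 bp of CDC19 and 0.36 at 53 bp of GPM1. A promoter of 200 bp gave differences of -0.16 at PDC1 and -1.0802 at GPM1, and H3 shutoff changes of -0.20 at FBA1 and -1.066 at GPM1. A promoter of 500 bp gave 2 that rose in H3 shutoff (reported 0), 0.40 at CDC19 in H3 shutoff, and differences of 0.0625 at CDC19, 0.44 at FBA1 and 1.12 at PFK2.

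With an overlap of 73 bp, 12 calls of wildtype C were altered (reported 19) and 0 retained (reported 1). With over 20 read centers, 0 and 3 calls of H3 shutoff 3 and 4 were retained (reported 1 and 5), and 0 of wildtype C were reduced or retained. Fuzziness within 50 bp of the pooled centers changed by -0.64 bp in wildtype (reported 2.03).

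Leaving out each culture in turn leaves a strain with 1 culture, assumed to vary like the other strain. The numbers called over all windows and all listed bodies moved as well, so the ranges of the members are not particular to them. Windows that rose ranged between 0 and 22 in H3 shutoff and between 1 and 14 in the difference. Those that fell ranged between 0 and 4 in H3 shutoff, 0 and 3 in wildtype, and 0 and 1 in the difference. Bodies that rose ranged between 0 and 3 in H3 shutoff and 0 and 4 in the difference, and those that fell in wildtype between 0 and 2. Leaving out H3 shutoff replicate 4 gave the 0 of windows and bodies that rose in H3 shutoff, and leaving out wildtype replicate B the 0 of bodies in the difference. Between 0 and 1 promoters rose in wildtype and 0 and 1 fell in the difference. The ranges of log2 values that reversed were, for bodies, -0.44 to 0.0502 (FBA1, wildtype), -0.31 to 0.17 (GPM1, H3 shutoff) and -0.15 to 0.33 (GPM1, difference). For promoters they were -0.69 to 0.73 (CDC19, H3 shutoff), -0.62 to 1.32 (PDC1, wildtype), -0.84 to 1.10 (PDC1, difference), -0.17 to 0.38 (PFK2, H3 shutoff), -0.54 to 2.13 (PFK2, wildtype) and -2.0298 to 0.64 (PFK2, difference). For windows they were -0.34 to 0.33 (CDC19 at 81 bp, wildtype) and -0.20 to 0.46 (difference), -0.64 to 1.575 (PDC1 at -198 bp, wildtype) and -0.27 to 1.96 (difference), -0.7308 to 0.26 (FBA1 at -203 bp, difference), and -0.46 to 0.45 (GPM1 at 53 bp, wildtype) and -0.79 to 0.12 (difference). The cause of these moves was not tested. Bodies held 257 to 1782 read centers per library and promoters 5 to 76, so promoter values were the least certain.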

Other observations

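Fragments centered on the 5 gene bodies differed from the mean length of their library by -2.36 and -0.835 bp in H3 shutoff replicates 3 and 4 at 3 h, and by 1.23 and 2.16 bp at 0 h. In wildtype replicates B and C they differed from it by -0.200 and 1.49 bp at 3 h, and by 0.156 and 1.48 bp at 0 h. Calls in the bodies were 181 and 182.5 bp apart (median) in H3 shutoff at 3 h, against 193 and 178.5 bp at 0 h, and 181 and 188 bp in wildtype at 3 h, against 175 and 172.5 bp at 0 h.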
